A study of Mus musculus with 6 samples.

Results

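The genes of myelin and of the oligodendrocyte lineage were examined in the mouse forebrain after a short high-fat diet. They were taken by name as a list of 35 genes, all of which were among the 23282 entries of the count tables and all of which passed the filter on low counts. Whole forebrain RNA from wild-type (WT) male C57BL/6J mice, which were 8 to 10 weeks old, was measured after 10 days on a normal chow diet (NCD) or on a high-fat diet (HFD) with 60 kcal% fat. There were 3 libraries on each diet, made with a 3′ mRNA-Seq kit from forebrain hemispheres without olfactory bulbs and cerebellum, and nothing but the diet distinguished the groups in the labels. The labels give a replicate number and do not tie a library to an animal, so p-values measure the spread between these libraries. Total counts ranged from 6842785 to 9689372 per library.

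Oligodendrocytes wrap axons of the central nervous system in myelin, a stack of membrane that speeds conduction and supports the axon. They arise from progenitor cells that persist in the adult brain, which pass through a committed precursor stage and a newly formed stage before they make the sheath. Each stage has its own genes: growth factor receptors in progenitors, transcription factors of the SOX, OLIG and NKX families across the lineage, and sheath proteins and myelin lipid enzymes in the mature cell.

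The 35 genes lie on 15 chromosomes, with at most 5 on any of them. In the GENCODE annotation of GRCm38, exons of 22 overlap no exon of another gene. Exons of 9 (Cnp, Ermn, Tspan2, Qdpr, Olig1, Nkx6-2, Nkx2-2, Gpr17 and Bcas1) overlap an exon on the other strand only, and those of 4 (Mobp, Trf, Pdgfra and Evi2a) overlap one on their own strand. Whether counting used the strand is not given in the sources used here, so reads of such pairs cannot be told apart.

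RefSeq promoter sequences (GRCm38.p6) were matched by symbol for 25 of the 35 genes, with 35 start sites among them. Within 300 bases, from 250 before to 50 after the start, the letters ACAAAG, the core bound by SOX factors, were found on either strand in 31.4% of the start sites of these genes and in 18.7% of all 32851 start sites. The E-box CAGATG was found in 28.6% and in 17.2%, and the E-box CAGCTG, which reads the same on both strands, in 17.1% and 16.3%. Counted by gene, ACAAAG was found in 8 of the 25, CAGATG in 10 and CAGCTG in 5. Start sites of the same gene can overlap and share a match, as those of Mag do, so the start sites are not independent. These matches are a description of letters and not of bound sites. The 250 bases before the start are shown for the 2 genes with a promoter entry for which the libraries of the diets did not overlap, Mal (chr2:127656696-127656945, minus strand) and Ermn (chr2:58052865-58053114, minus strand), and for Mobp (chr9:120149492-120149741, plus strand), which held 6 matches of the SOX core in this stretch. Capitals mark ACAAAG or its reverse complement CTTTGT.
Mal: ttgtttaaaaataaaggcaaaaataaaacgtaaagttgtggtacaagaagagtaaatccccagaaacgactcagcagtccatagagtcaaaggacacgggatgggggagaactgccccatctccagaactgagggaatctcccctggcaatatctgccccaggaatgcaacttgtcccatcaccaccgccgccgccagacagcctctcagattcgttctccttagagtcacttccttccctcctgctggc
Ermn: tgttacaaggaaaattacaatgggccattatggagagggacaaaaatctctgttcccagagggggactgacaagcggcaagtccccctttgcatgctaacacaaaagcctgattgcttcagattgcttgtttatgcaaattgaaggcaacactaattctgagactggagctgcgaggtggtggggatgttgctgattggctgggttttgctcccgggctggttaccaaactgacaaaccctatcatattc
Mobp: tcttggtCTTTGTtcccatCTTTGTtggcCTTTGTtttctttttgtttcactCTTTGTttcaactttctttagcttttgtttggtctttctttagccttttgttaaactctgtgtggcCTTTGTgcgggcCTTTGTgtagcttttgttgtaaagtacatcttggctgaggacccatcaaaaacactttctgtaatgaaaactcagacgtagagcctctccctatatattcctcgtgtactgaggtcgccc
The stretches of Mal and Ermn held none of the 3 motifs.

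The summed level of the lineage genes overlapped between the diets, and no gene among them passed the test. CPM values, which are counts scaled to a common library size after normalization by the trimmed mean of M-values (TMM), summed over the 35 genes, were 7154, 7157 and 7046 in NCD replicates 1 to 3 and 7576, 7227 and 7105 in HFD replicates 1 to 3. The means were 7119 ± 63.1 (SD, n = 3) on the NCD and 7303 ± 244 (SD, n = 3) on the HFD, a ratio of 1.03, and the diets overlapped. Mbp alone supplied 0.338% of all counts on average, and without it the sums were 3774 ± 30.03 on the NCD and 3878 ± 70.7 on the HFD (SD, n = 3), which overlapped too. In bulk tissue, fewer cells of a type and less RNA per cell cannot be told apart.

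In edgeR's quasi-likelihood test, 0 of the 35 genes had an unadjusted p under 0.05, where 507 of 13771 genes tested (3.68%) had one, 1.71% higher and 1.98% lower on the HFD. The count among the 35 was 0 in DESeq2 and limma too. After Benjamini-Hochberg adjustment over all genes tested, 0 genes passed 0.05 in edgeR or in limma and 2 passed in DESeq2, none of them among the 35. The log2 fold change of HFD over NCD was above 0 for 21 of the 35 genes and below 0 for 14, from -0.35 (Myrf) to 0.27 (Evi2a), with a median of 0.03 where the median of all genes tested was -0.0025. Standard errors ran from 0.08 to 0.37. The 95% interval of the fold change included 0 on the log2 scale for all 35 genes. It lay within 1.5-fold in either direction for 30 of them (85.7%, where 62.5% of all genes tested had such an interval), and reached beyond for Nkx2-2, Myrf, St18, Cspg4 and Evi2a, so for those 5 a change beyond 1.5-fold could not be told from none at this depth and spread.

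**Figure D1:**
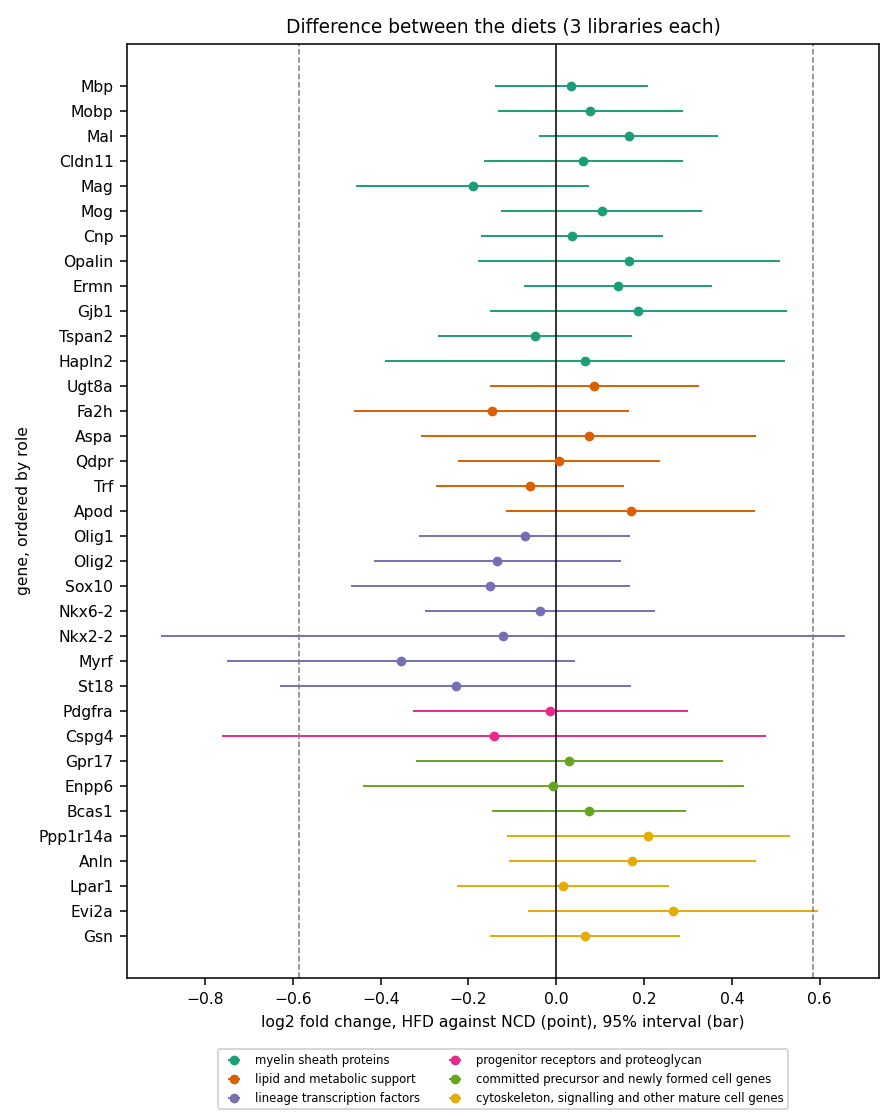
Log2 fold change of HFD over NCD for each of the 35 genes (x axis, log2 units; points are edgeR estimates and bars their 95% intervals), ordered by role, with dashed lines at 1.5-fold in either direction. All 35 intervals cross 0, and the widest belongs to Nkx2-2.

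The libraries of the diets did not overlap for 3 of the 35 genes (8.57%), where 1213 of 13771 genes tested (8.81%) were separated in this way. Mal and Ermn were higher in all 3 HFD libraries, as were 4.31% of all genes tested, and St18 was lower in all 3, as were 4.49%. These shares are close to each other, and the p-values of the 3 genes lay between 0.105 and 0.242.

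The sheath proteins build and seal the membrane stack. Of these 12 genes, 10 had a fold change above 0 and 2 below, with a median log2 fold change of 0.07 and none past the test. This median moved by at least the spread between libraries of a diet in 2 of the 6 fits with a library left out. It did so in 1 of the 9 alternatives that kept all libraries too. The summed CPM of the 12 genes was 5087 ± 78.6 on the NCD and 5242 ± 211 on the HFD (SD, n = 3), and the diets overlapped.

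Mbp, which presses the inner faces of the membrane together, had a CPM of 3400, 3349 and 3287 in NCD libraries and of 3629, 3345 and 3299 in HFD libraries. Only HFD replicate 1 stood above the NCD libraries. The log2 fold change was 0.03 ± 0.08 (SE), a fold of 1.02 with a 95% interval of 0.907 to 1.15.

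Mag, an adhesion protein of the innermost layer facing the axon (GRCm38 chr7:30899176-30914873), had a CPM of 203, 197 and 261 in NCD libraries and of 208, 203 and 169 in HFD libraries. NCD replicate 3 was the highest and HFD replicate 3 the lowest, and the other 4 libraries lay between 197 and 208. The log2 fold change was -0.19 ± 0.13 (SE), the largest in size among the sheath genes, with an unadjusted p of 0.148 in the edgeR fit and an adjusted p of 0.979. It was -0.05 without NCD replicate 3.

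Mal, a raft-associated membrane protein of compact myelin (GRCm38 chr2:127633226-127656695), had a CPM of 471, 468 and 415 in NCD libraries and of 507, 495 and 516 in HFD libraries. Every HFD library was above every NCD library, with a log2 fold change of 0.16 ± 0.10 (SE) and a 95% interval of -0.04 to 0.37, and it was 0.11 without NCD replicate 3. Ermn, a protein of the oligodendrocyte cytoskeleton (GRCm38 chr2:58045113-58052864), had a CPM of 105, 103 and 109 in NCD libraries and of 113, 119 and 118 in HFD libraries, a log2 fold change of 0.14 ± 0.10 (SE). Its exons overlap Galnt5 on the other strand. In the edgeR fit the adjusted p was 0.979 for each of them.

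Opalin and Gjb1 depended on HFD replicate 3. Opalin, a transmembrane protein of central myelin, had a CPM of 31.5, 23.3 and 30.7 in NCD libraries and of 29.8, 27.0 and 39.2 in HFD libraries. Gjb1, a gap junction connexin of myelinating cells, had a CPM of 19.1, 17.7 and 17.7 in NCD libraries and of 17.7, 19.3 and 25.0 in HFD libraries. HFD replicate 3 was the highest library for both, and without it the log2 fold changes of 0.17 and 0.19 were -0.0054 and 0.03. The remaining sheath genes had log2 fold changes from -0.05 to 0.10: Mobp and Cnp of compact and non-compact myelin, Cldn11 of the tight junctions between lamellae, Mog of the outer surface, the tetraspanin Tspan2 and Hapln2, a matrix protein at the node.

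The genes for lipid and metabolic support serve the supply of the sheath. Of these 6 genes 4 had a fold change above 0 and 2 below, with a median log2 fold change of 0.04. The median was -0.018 without NCD replicate 1 and -0.0068 without NCD replicate 2. Their summed CPM was 1097 ± 56.3 on the NCD and 1128 ± 14.7 on the HFD (SD, n = 3). Ugt8a and Fa2h, which make the galactolipids of myelin and hydroxylate their fatty acids, had log2 fold changes of 0.09 ± 0.11 and -0.15 ± 0.15 (SE).

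Qdpr, which regenerates tetrahydrobiopterin, had a CPM of 346, 342 and 370 in NCD libraries and of 331, 322 and 408 in HFD libraries. The HFD libraries held both the lowest and the highest of the 6 values. Apod, a carrier of small lipids, had a CPM of 314, 402 and 255 in NCD libraries and of 377, 373 and 343 in HFD libraries, and the spread was wider on the NCD (SD 74.3 around a mean of 324) than on the HFD (SD 18.6 around 364). Its log2 fold change was 0.17 ± 0.13 (SE), with an unadjusted edgeR p of 0.224 and an adjusted p of 0.979. It was 0.36 without NCD replicate 2, where the unadjusted p was 0.0132 and the lowest adjusted p of any edgeR, limma or DESeq2 fit for Apod was 0.892. Aspa, which splits N-acetylaspartate, and Trf, the iron carrier transferrin, had log2 fold changes of 0.07 and -0.06.

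Fa2h was among the genes set apart by a single library. Its CPM was 45.7, 47.1 and 46.2 in NCD libraries and 46.6, 47.6 and 31.1 in HFD libraries. Leaving out HFD replicate 3 gave a log2 fold change of 0.02.

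**Figure D2:**
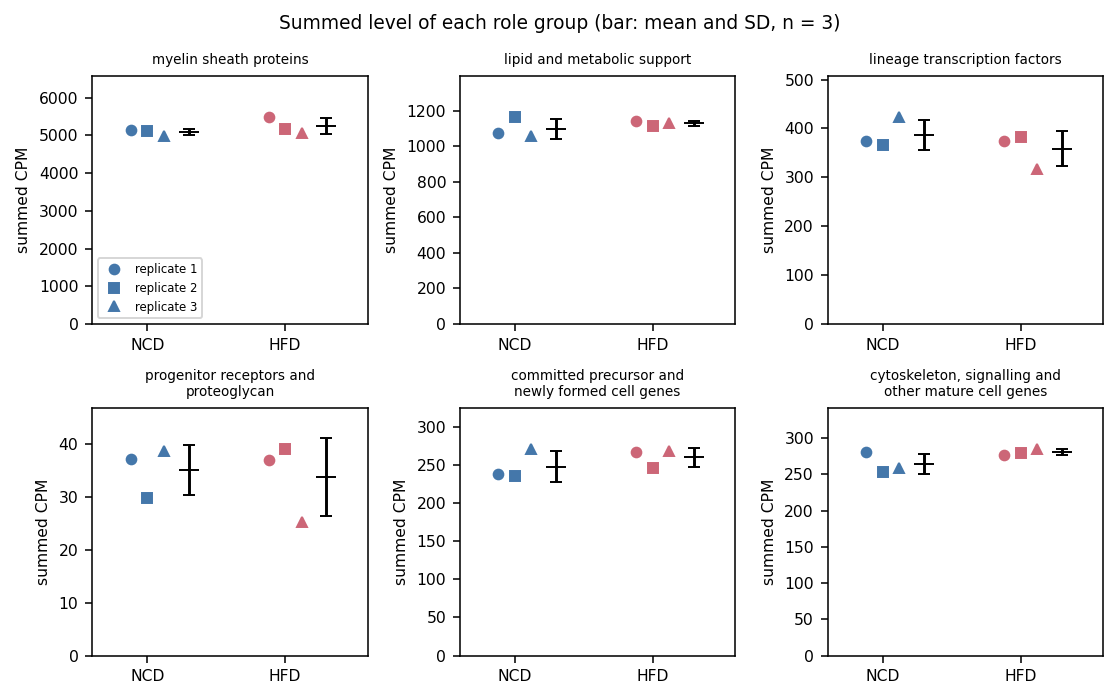
Summed CPM (y axis, starting at 0) of the 6 role groups in each library, with the diet on the x axis, symbols for the replicate, and the mean and SD (n = 3) beside the points. The diets overlap in all 6 panels, and HFD replicate 3 is the lowest library for the transcription factors and for the progenitor genes.

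The transcription factors set the identity of the lineage. All 7 had a log2 fold change below 0, with a median of -0.13, and none passed the test. Their summed CPM was 373, 366 and 423 in NCD libraries and 374, 383 and 318 in HFD libraries, so HFD replicates 1 and 2 lay inside the NCD range and HFD replicate 3 below it. Without HFD replicate 3, 3 of the 7 were above 0 and 4 below, with a median of -0.02.

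Olig1, a basic helix-loop-helix factor (GRCm38 chr16:91269772-91271933), had a CPM of 152, 146 and 154 in NCD libraries and of 144, 161 and 124 in HFD libraries. The log2 fold change was -0.07 ± 0.11 (SE). Olig2, its neighbour on chromosome 16 and the factor that specifies the lineage, had a CPM of 47.0, 41.6 and 48.8 in NCD libraries and of 46.2, 44.0 and 34.9 in HFD libraries. Sox10, which switches on myelin genes, had a CPM of 53.0, 44.7 and 53.4 in NCD libraries and of 53.1, 48.6 and 34.2 in HFD libraries. For all 3 genes HFD replicate 3 was the lowest of the 6 libraries. HFD replicates 1 and 2 lay inside the NCD range for Olig2 and Sox10. For Olig1, HFD replicate 1 lay below that range and HFD replicate 2 above it.

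Myrf, a membrane-bound factor that drives the myelin program in maturing cells (GRCm38 chr19:10208272-10240748), had the smallest p of the 35 genes. Its CPM was 33.2, 34.5 and 48.8 in NCD libraries and 34.4, 35.5 and 21.2 in HFD libraries. The 4 libraries with replicate numbers 1 and 2 lay within 33.2 to 35.5, while NCD replicate 3 was above them and HFD replicate 3 below. The log2 fold change was -0.35 ± 0.19 (SE), with a 95% interval of -0.75 to 0.04, an unadjusted p of 0.0767 in the edgeR fit and an adjusted p of 0.979. It was -0.15 without NCD replicate 3 and -0.49 without HFD replicate 2.

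St18, a zinc finger factor, was the only transcription factor with separated diets, at a CPM of 10.7, 10.4 and 10.4 in NCD libraries and of 8.78, 8.63 and 9.49 in HFD libraries. Its log2 fold change was -0.23 ± 0.19 (SE), with an unadjusted edgeR p of 0.242 and an adjusted p of 0.979. Between 61 and 99 reads per library stood behind these values. Nkx6-2 and Nkx2-2, homeodomain factors of the lineage, had log2 fold changes of -0.04 ± 0.12 and -0.12 ± 0.37 (SE). Nkx2-2 rested on 25 to 64 reads per library.

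The progenitor genes were few and low in reads. Pdgfra, the growth factor receptor of progenitors (GRCm38 chr5:75152292-75198215), had a CPM of 25.7, 21.7 and 25.3 in NCD libraries and of 23.8, 27.3 and 20.6 in HFD libraries, a log2 fold change of -0.01 ± 0.15 (SE). Cspg4, a surface proteoglycan of progenitors and pericytes (GRCm38 chr9:56865033-56899870), had a CPM of 11.4, 7.98 and 13.3 in NCD libraries and of 13.1, 11.7 and 4.67 in HFD libraries. HFD replicate 3, with 34 reads of Cspg4, was the lowest library and the other HFD libraries lay within the NCD range. Without HFD replicate 3 the log2 fold change of Cspg4 went from -0.14 to 0.19 and that of Pdgfra to 0.08.

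Of the genes of committed and newly formed cells, Gpr17, a receptor of committed precursors, had a log2 fold change of 0.03 ± 0.17 (SE) and Enpp6, a choline phosphodiesterase of newly formed cells, one of -0.0069 ± 0.21 (SE). Bcas1, a marker of early myelinating cells (GRCm38 chr2:170346991-170427845), had a CPM of 210, 210 and 241 in NCD libraries and of 235, 217 and 244 in HFD libraries. The diets overlapped, and the log2 fold change of Bcas1 was 0.07 ± 0.10 (SE).

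The 5 other genes of mature cells all had a fold change above 0, with a median log2 fold change of 0.17 and none past the test. This median moved by at least the spread between libraries of a diet in 2 of the 6 fits with a library left out. Lpar1, a receptor for lysophosphatidic acid (GRCm38 chr4:58435255-58553898), had a CPM of 116, 94.9 and 110 in NCD libraries and of 99.6, 107 and 118 in HFD libraries, a log2 fold change of 0.02 ± 0.11 (SE). Evi2a, a membrane protein encoded within the Nf1 locus (GRCm38 chr11:79526560-79530609), had a CPM of 18.1, 20.6 and 15.3 in NCD libraries and of 20.4, 23.6 and 20.8 in HFD libraries. Its log2 fold change of 0.27 ± 0.16 (SE) was the highest of the 35, with an unadjusted edgeR p of 0.107 and an adjusted p of 0.979, and HFD replicate 1 was below NCD replicate 2. Without NCD replicate 3 it was 0.16. Its exons overlap Evi2 on the same strand. Anln and Gsn, which act on septins and actin, and Ppp1r14a, an inhibitor of a protein phosphatase, had log2 fold changes of 0.17, 0.06 and 0.21, and that of Ppp1r14a was 0.05 without NCD replicate 3.

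**Figure D3:**
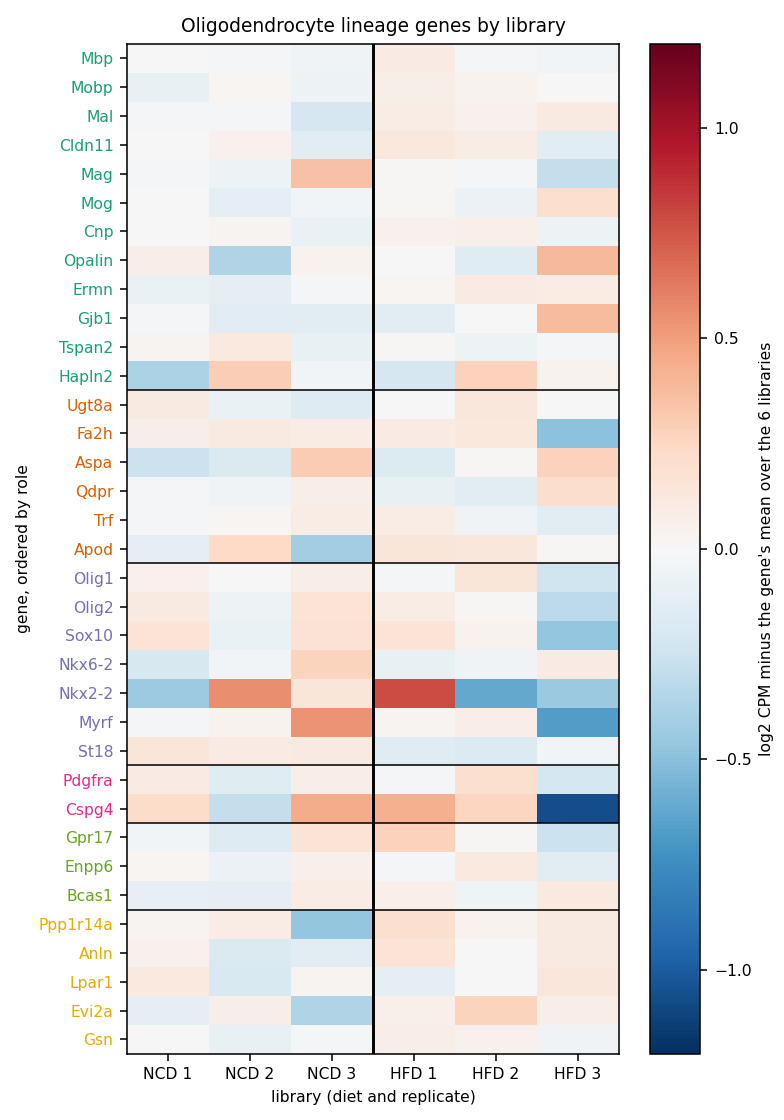
Log2 CPM of each of the 35 genes in each library minus its mean over the 6 libraries (colour, log2 units), with libraries on the x axis and genes by role on the y axis. HFD replicate 3 holds the lowest value for 11 genes, Cspg4 and Myrf among them, and the highest for 7, Opalin and Gjb1 among them.

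The spread among the libraries was uneven. HFD replicate 3 was the lowest of the 6 libraries for 11 of the 35 genes (31.4%) and the highest for 7 (20%), where it was the lowest for 27.1% and the highest for 26.2% of all genes tested. HFD replicate 1 was the lowest for 0 of the 35 genes and for 14.0% of all genes tested. NCD replicate 3 was the lowest for 9 of the 35 (25.7%) and the highest for 7 (20%), where it was the lowest for 21.7% and the highest for 21.4% of all genes tested.

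The difference of HFD replicate 3 from the mean of the other HFD libraries, is given on the log2(CPM + 0.5) scale. Its median was -0.0017 for the sheath proteins, -0.10 for lipid and metabolic support, -0.36 for the transcription factors, -0.81 for the 2 progenitor genes, -0.17 for the 3 genes of committed and newly formed cells and -0.0073 for the other mature genes. Genes of the same role went both ways: among the transcription factors Nkx6-2 was at 0.16 and St18 at 0.12, and the sheath proteins ran from -0.28 (Mag) to 0.46 (Opalin). Differences between roles were not tested. Over the 35 genes, Spearman's rho was -0.39 with the length of the longest protein-coding transcript and -0.41 with its GC content, and over 12733 genes rho was -0.29 and -0.30. These are descriptions across genes, which share the library and are not independent. The median transcript of the transcription factors was 58.5% GC, that of the sheath proteins 50.9%, and the part of length and GC content in the differences was not tested.

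**Figure D4:**
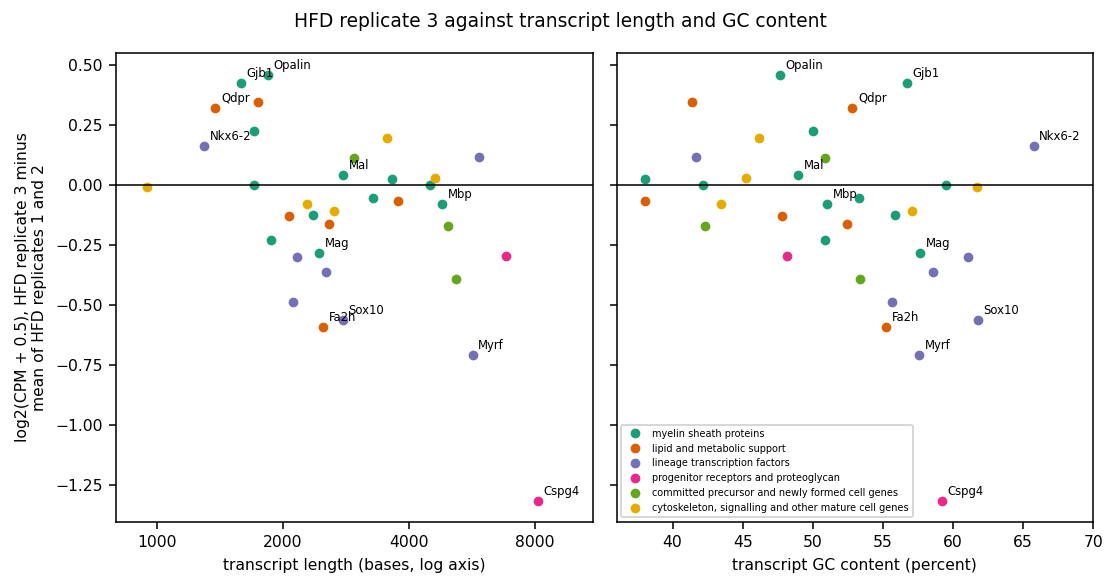
Difference of HFD replicate 3 from the mean of HFD replicates 1 and 2 (y axis, log2(CPM + 0.5) units) against the length of the longest protein-coding transcript (left, bases, log axis) and its GC content (right, percent), 1 point per gene of the 35, coloured by role. Longer and more GC-rich transcripts tend to lie lower (rho of -0.39 and -0.41), with Cspg4 lowest at -1.32.

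Genes of the pituitary and of single brain regions varied between the libraries too. The summed CPM of 7 pituitary genes was 1276 in HFD replicate 3 and between 4.75 and 13.6 in the other 5 libraries, with 7 of 7 genes highest there. The sum of 8 hypothalamus genes was 16.2 in HFD replicate 3 and between 66.8 and 108 elsewhere, and that of 12 midbrain and hindbrain genes was 26.1 and between 45.4 and 67.7 elsewhere. The part of this difference in the values of HFD replicate 3 was not tested. Markers of the tissue were present: sums of neuron genes were between 6468 and 6853 CPM, of astrocyte genes between 4548 and 5066, and of microglia genes between 373 and 411, with the diets overlapping for each. Of 6 genes of Schwann cells, which make peripheral myelin, Pmp2 had 0 counts in all libraries, where the floor of 3 counts is 0.316 to 0.432 CPM, and Prx had at most 1 count in any library. The sum of the 6 was 59.1 ± 3.86 CPM on the NCD and 53.3 ± 7.50 on the HFD (SD, n = 3).

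Pathway genes around the 35 were read in the same way. Of 30 further genes of mature oligodendrocytes, 13 had a fold change above 0 and 17 below, and the median log2 fold change was -0.01. Tppp, a tubulin-binding protein with the highest mean CPM of that list, had a log2 fold change of 0.15 ± 0.10 (SE), and of 0.08 without NCD replicate 3. Of 18 further genes of progenitors and precursors, 7 were above 0 and 11 below, with a median of -0.07, and Cspg5, a proteoglycan, had a log2 fold change of -0.03 ± 0.12 (SE). Of 18 further regulators of the lineage 16 were tested, since Zfp24 was not matched by name and Erbb3 was under the filter, and the median was -0.02, with Id2, an inhibitor of helix-loop-helix factors, at 0.01 ± 0.11 (SE). None of these lists held a gene with an unadjusted edgeR p under 0.05.

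Of the lipid lists, that of cholesterol metabolism was mostly below 0. For 10 genes of galactolipid synthesis and turnover the median log2 fold change was -0.08, with 4 above 0 and 6 below. Of all genes tested, 49.4% were above 0. Psap, a precursor of sphingolipid activators, was at -0.13 ± 0.10 (SE), and at -0.02 without NCD replicate 3. For 15 genes of cholesterol metabolism, of which oligodendrocytes are large users but which other brain cells express too, the median was -0.13 and 14 of 15 were below 0. The sums of their CPM did not overlap, at 858, 887 and 885 in NCD libraries and 740, 818 and 829 in HFD libraries. Hmgcs1, the enzyme at the head of the pathway, had a CPM of 338, 352 and 378 in NCD libraries and of 276, 331 and 342 in HFD libraries and a log2 fold change of -0.17 ± 0.11 (SE), which was -0.08 without HFD replicate 1.

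Genes of the node and paranode, where axon and sheath meet, are expressed by neurons and oligodendrocytes. Of 12 listed, 11 were matched by name and tested, with a median log2 fold change of -0.14, and 10 of the 11 were lowest in HFD replicate 3. The median was 0.02 without that library. Ank3, an ankyrin of the node, had a CPM of 742, 701 and 731 in NCD libraries and of 782, 672 and 489 in HFD libraries, and its log2 fold change went from -0.16 to 0.0036 without HFD replicate 3.

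**Figure D5:**
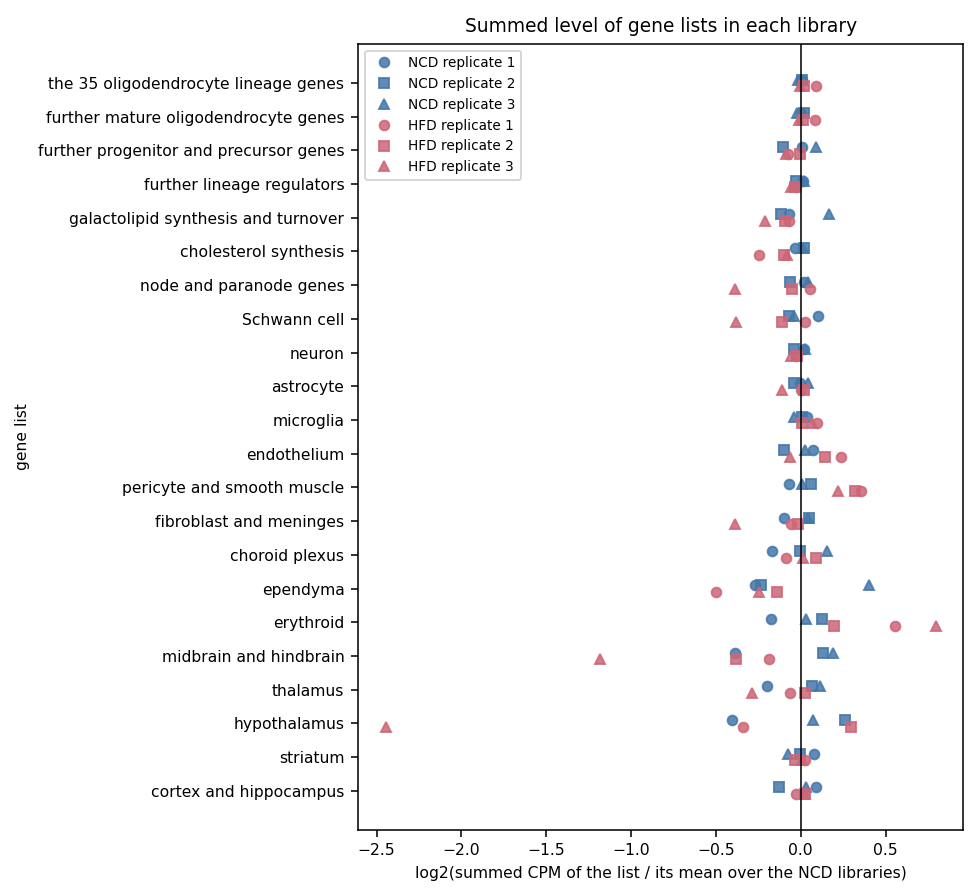
Log2 ratio of the summed CPM of each gene list (y axis) in each library to the mean of the NCD libraries (x axis, log2 units), blue for NCD and red for HFD, with pituitary and liver left off for scale. The sums of the 35 oligodendrocyte lineage genes lie close to 0 in all 6 libraries, while hypothalamus genes of HFD replicate 3 lie far to the left and cholesterol synthesis genes are lower in all 3 HFD libraries.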

How the data were processed

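Per the labels and the study's methods, the authors trimmed adaptors from QuantSeq 3′ reads, aligned them to mm10 with Bowtie2 and took read counts per gene with Bedtools coverage of unique and multiple alignments. They deposited these counts as whole numbers without normalization. The annotation, strand setting and tool versions are not given in the sources used here. Multiple alignments can place reads of near-identical genes on either copy.

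The tests used edgeR 4.0.16 under R 4.3.3. A filter by filterByExpr (count minimum 10, total minimum 15) kept 13771 of 23282 genes, followed by TMM, glmQLFit and glmQLFTest without covariates, and Benjamini-Hochberg adjustment over all genes tested. The common biological coefficient of variation was 0.126. Libraries were grouped by the diet in their labels. SE values were derived from the F statistic, and intervals are 95%. Alternatives used DESeq2 1.42.0, limma 3.58.1 on quantile-normalized log2(CPM + 1), other scalings and filters, a replicate block, and leaving out each library. The fit was tested on simulated data. Libraries of the same diet were farther apart than counting noise, with a chi-square of 3.47 to 16.0 per degree of freedom. The floor was set at 3 counts and covers counting error only. Rn45s held 5.55% to 8.75% of counts. CPM of these 3′ libraries carry no length correction, and genes were ordered by mean CPM only to choose which to name.

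The genes and lists were chosen with earlier results of these data known. Every gene of the 35 was named. Values in each library were given by rule for the gene with the highest mean CPM and the one with the largest fold change in each role, and the others so described were chosen after their values were seen. From the pathway lists, the gene with the highest mean CPM and those with an unadjusted p under 0.05 were named. Some results for single genes of the other lists are not reported here.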

Additional observations from a re-analysis of the deposited data

How the results depend on the processing

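The median log2 fold change of the 35 genes stayed between 0.02 and 0.05 under all 15 alternatives. At an adjusted p under 0.05, the count of genes was 2 with DESeq2, 23 with no filter on low counts, and 0 to 3 with a library left out (3 without NCD replicate 3). Of the 35 genes, 1 had an unadjusted p under 0.05 with no filter (Myrf) and 0 to 1 did with a library left out: Myrf without NCD replicate 1, HFD replicate 1 or HFD replicate 2, and Apod without NCD replicate 2. Over all genes tested, that count was 507 in the fit reported, 902 with no filter and 411 to 773 with a library left out, the most without HFD replicate 1. Signs turned for Qdpr with quantile normalization (-0.018), library size alone (-0.018) and the replicate block (-0.0016), for Enpp6 with quantile normalization (0.012), and with library size alone for Lpar1 (-0.0049) and Id2 (-0.010). With a library left out, signs turned for 16 of the 35 genes, with log2 fold changes from -0.0095 to 0.060 for Mbp, -0.0054 to 0.28 for Opalin, -0.10 to 0.00038 for Tspan2, -0.083 to 0.25 for Hapln2, -0.26 to 0.025 for Fa2h, -0.050 to 0.27 for Aspa, -0.11 to 0.068 for Qdpr, -0.17 to 0.023 for Olig1, -0.27 to 0.014 for Sox10, -0.13 to 0.10 for Nkx6-2, -0.68 to 0.14 for Nkx2-2, -0.13 to 0.082 for Pdgfra, -0.38 to 0.19 for Cspg4, -0.11 to 0.15 for Gpr17, -0.075 to 0.051 for Enpp6 and -0.064 to 0.079 for Lpar1. Likewise they ran from -0.15 to 0.048 for Cspg5, -0.10 to 0.081 for Id2 and -0.32 to 0.0036 for Ank3. The cause was not tested. Deviations of libraries with the same number correlated at -0.03, 0.05 and -0.06 across the genes tested, not every library correlated best with its own number, and the numbers were not taken to pair libraries. With the replicate block, 371 genes had an unadjusted p under 0.05 (507 without it), the median log2 fold change of the 35 genes was 0.03, and 0 of the 35 genes had an unadjusted p under 0.05. With 3 libraries per diet and fewer than 100 reads per library for St18, Nkx2-2 and Enpp6, small differences could not be detected.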

Other observations

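Outside the lineage, genes of red blood cells were higher on the HFD. All 5 erythroid genes had a log2 fold change above 0, with a median of 0.56. An unadjusted edgeR p under 0.05 was reached by 4 of 5, where 1.71% of all genes tested were higher at that threshold. The 4 were globin genes, and near-identical copies can share reads, so they are not separate results. The summed CPM of the 5 was 421, 519 and 485 in NCD libraries and 699, 544 and 824 in HFD libraries, which did not overlap. Taken singly, the diets did not overlap for 2 of the 5. All 5 pericyte and smooth muscle genes were above 0 with a median of 0.33. An unadjusted edgeR p under 0.05 was reached by 1 of 5, beside the same share of 1.71% of all genes tested. The summed CPM of these 5 was 44.3 ± 1.98 on the NCD and 54.5 ± 2.65 on the HFD (SD, n = 3). Of 6 liver genes 5 were tested. All 5 were lower on the HFD at an unadjusted edgeR p under 0.05, as were 1.98% of all genes tested. The summed CPM of the 6 was 27.8, 51.8 and 10.4 in NCD libraries and 7.77, 11.9 and 5.77 in HFD libraries. These sums overlapped between the diets, with the highest in NCD replicate 2. None of these genes passed 0.05 after adjustment over all genes tested.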
